A study of Rattus norvegicus with 44 samples.

Results

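Solute carriers are membrane proteins encoded by the Slc genes, and they were followed here in rat liver after dosing with compounds R1 and R2. Members were the probe sets with a single annotated symbol that begins with Slc and a digit, which leaves out the Slco family. Slc6a6 (1 probe set) and Slc37a4 (2 probe sets) were also left out. This gave 179 probe sets for 119 genes, of 8740 probe sets on the array other than controls. Of these, 127 probe sets for 96 genes were bright enough to be tested, and 52 probe sets were not, which left 23 genes with no tested probe set.

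Solute carriers move nutrients, metabolites, ions and drugs across the plasma membrane and across the membranes of mitochondria and peroxisomes, mostly by exchange, cotransport or facilitated diffusion. In hepatocytes they bring in bile acids, organic ions, sugars, amino acids and nucleosides from the blood. The Slc25 family links the cytosol with the mitochondrial matrix, and carriers of carnitine and fatty acids feed beta-oxidation.

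The 44 arrays came from 4 studies of liver from male Wistar rats, 8 weeks old, dosed by gavage once a day and killed a day after the last dose. Study 1 (24 h) held 3 arrays of vehicle, 4 of R1 at 10 mg/kg/day, 3 at 30 and 3 at 100. Study 2 (336 h) held 4 arrays of vehicle, 5 of R1 at 20 mg/kg/day and 4 at 100. Study 3 (336 h) held 4 arrays of R1 at 30 mg/kg/day and 5 of vehicle, and study 4 (24 h) held 5 arrays of R2 at 300 mg/kg/day and 4 of vehicle. The vehicle in all 4 studies was a citric acid buffer, and the labels give both compounds by code name. The labels do not say whether each array came from its own rat. The p-values therefore rest on the spread between arrays, part of which may be technical, and precision is limited by how many arrays there are. A group is called here by its compound and dose (R1 100 at 336 h), and array numbers are the replicate numbers of the labels.

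Values are array signals, and differences are log2 fold changes ± SE on the scale of log2(signal + 2.89), where the offset shrinks the change of dim genes. Calls were made where the adjusted p was under 0.05 (limma, Benjamini-Hochberg over the 6361 probe sets tested in each comparison). A gene is given by its brightest tested probe set, and 25 genes had several. Where a call is said to end, the adjusted p no longer passed with an array left out or another setting. A further setting, the replicate block, added terms for the replicate number within each study. The calls that it ended are named in the last section and not beside each gene. Arrays of a group correlated between 0.924 and 0.974. The 5 hepatocyte markers tested had a summed signal of 22114 to 30532 on every array, and the markers of other liver cells that were tested are given below. In a slice of liver, fewer cells of a type and less RNA per cell cannot be told apart.

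Few Slc probe sets were called at the low R1 doses after 24 h and the most with R2, as was so for all probe sets tested. Percentages in parentheses are shares of the 127 Slc probe sets tested, and the background is the share of all 6361 probe sets tested that was called in the same comparison. After 24 h, R1 10 called 0 Slc probe sets by limma, against a background of 1.24% (1.04% higher and 0.204% lower). R1 30 called 1, which was lower (0.787%), against 1.73% (1.48% higher and 0.252% lower). R1 100 called 4 higher and 7 lower (8.66%), against 6.4% (3.96% higher and 2.44% lower). After 336 h, R1 20 called 1 higher and 4 lower (3.94%), against 4.43% (2.55% higher and 1.89% lower). R1 100 called 5 higher and 8 lower (10.2%), against 10.3% (5.11% higher and 5.2% lower). R1 30 called 6 higher and 7 lower (10.2%), against 11.3% (5.27% higher and 6.01% lower). R2 300 after 24 h called 11 higher and 14 lower (19.7%), against 15.3% (7.44% higher and 7.88% lower). Between doses, R1 100 against R1 10 called 1 higher and 4 lower (3.94%), against 3.98% (2.31% higher and 1.67% lower). R1 100 against R1 20 called 2 higher and 4 lower (4.72%), against 4.07% (2.09% higher and 1.98% lower). The difference between the shares of Slc probe sets and of all probe sets was not tested. The median log2 fold change of the Slc probe sets lay between -0.11 (R2 300) and 0.07 (R1 30, 336 h), and that of all probe sets between -0.05 and -0.01.

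Counts depended on single arrays where they were small. At R1 10, 15 Slc probe sets had an unadjusted p under 0.05 (11.8%, against 9.79% of all probe sets). Weighting arrays by quality called 2 there, and fitting each study alone called 1. At R1 100 after 24 h the count was 3 without vehicle array 1, 5 without R1 100 array 1 and 7 without R1 100 array 3. At R1 30 after 24 h it was 0 without vehicle array 1 or R1 30 arrays 1 or 2. At R1 20 after 336 h it was 3 without vehicle array 1, 1 without vehicle array 2, 0 without vehicle array 3 and 2 without vehicle array 4, and 2, 2, 3 and 1 without R1 20 arrays 1, 2, 3 and 4. At R1 30 after 336 h it was 5 without R1 30 array 3. R1 100 against R1 10 gave 3 without R1 10 array 1 or R1 100 arrays 1 or 3, and R1 100 against R1 20 gave 3 without R1 100 array 2 and 2 without R1 100 array 3. With each study fitted alone, R2 300 gave 14. The background moved as well. The 79 calls over all probe sets at R1 10 were 44 without vehicle array 1 and 37 without vehicle array 2, and the 110 at R1 30 after 24 h were 73 without vehicle array 1. The 407 at R1 100 after 24 h were 263 without vehicle array 1 and 271 without R1 100 array 1, and the 717 at R1 30 after 336 h were 453 without R1 30 array 3. The 253 for R1 100 against R1 10 were 157 and 160 without R1 10 arrays 1 and 2, and 124 without R1 100 array 1. For the difference of R1 30 between times, 61 were 30 and 35 without study 1 vehicle arrays 1 and 2 and 34 without R1 30 array 1 of study 1. Vehicle of study 4 against study 1 called 359, which were 221 and 193 without study 1 vehicle arrays 1 and 2.

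**Figure D1:**
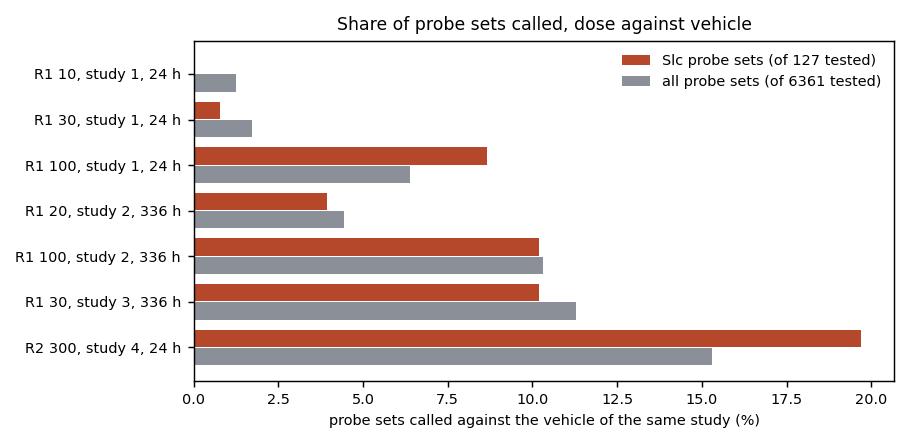
Percent of probe sets called against the vehicle of the same study (horizontal axis), for the 127 Slc probe sets tested (upper bars) and all 6361 probe sets tested (lower bars), in 7 comparisons. R2 300 has the longest bars (19.7% and 15.3%).

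Of the 96 genes tested, 30 were called in 1 or more of the 7 comparisons with vehicle (31.2%) and 66 in none. By the same rule, 1015 of all 3702 genes with a tested probe set under 1 symbol were called in 1 or more (27.4%). Over probe sets it was 37 of 127 for Slc and 1745 of 6361 for all (27.4%). Slc16a1, Slc25a17 and Slc22a7 were each called in 4, 4 genes in 3, 10 in 2 and 13 in 1. The doses of a study share their vehicle arrays, so calls at several doses of studies 1 and 2 are not separate tests.

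**Figure D2:**
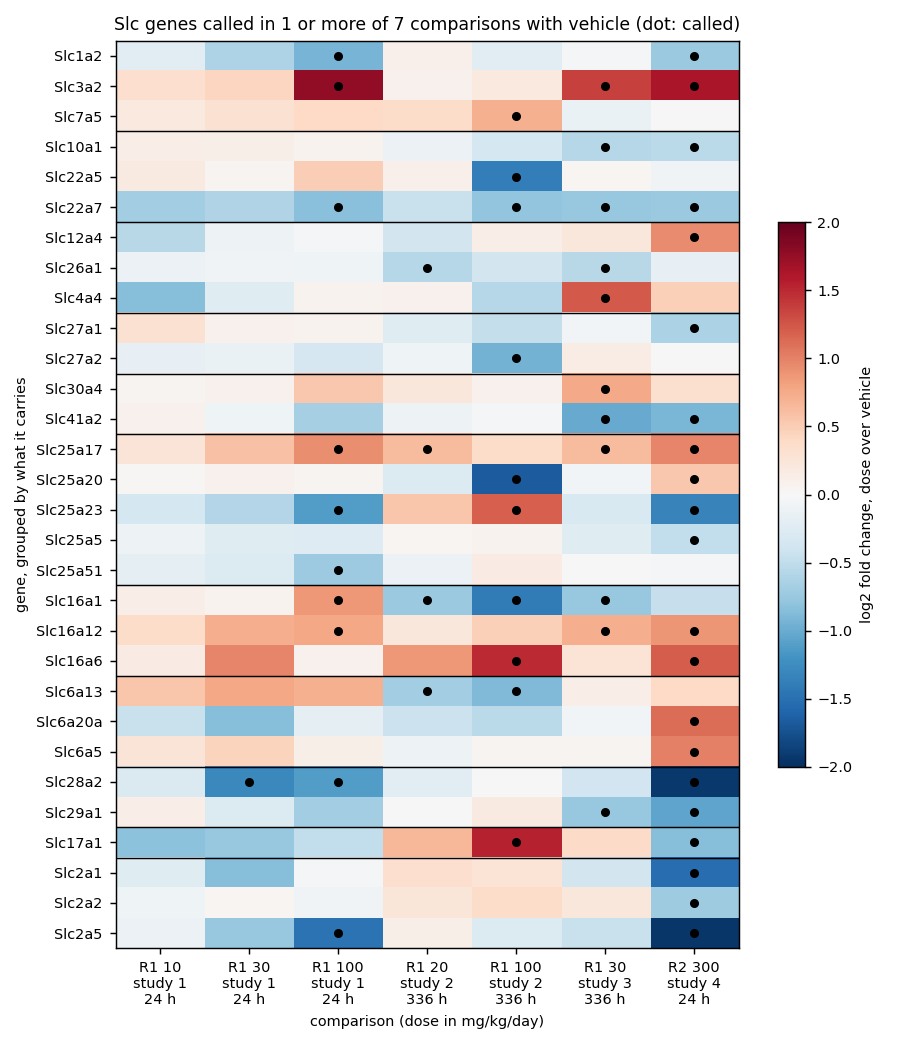
Log2 fold change of dose over vehicle (color, from -2 to 2) for the 30 Slc genes called in 1 or more of 7 comparisons, with genes in rows, grouped by what they carry, and comparisons in columns. A dot marks a call, and Slc25a17 and Slc16a12 are red while Slc22a7 is blue in each column.

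Amino acid carriers were led by Slc3a2, the heavy chain (CD98) that brings several amino acid exchangers to the plasma membrane. In study 1 its signal was 101, 128 and 145 on vehicle arrays, 158, 139.6, 166 and 166 at R1 10, 214, 129 and 170.3 at R1 30 and 599, 374 and 349 at R1 100. All 3 arrays at R1 100 lay above every other array of the study. The rise at R1 100 was 1.77 ± 0.26 (adjusted p = 4.42e-06), and R1 100 was also above R1 10 (1.43 ± 0.24, adjusted p = 0.000171). R2 300 arrays read 366, 400.2, 328, 404 and 419, against 132, 121, 115 and 118 with vehicle. These groups did not overlap either, and the rise was 1.63 ± 0.21 (adjusted p = 1.9e-07). After 336 h, R1 30 arrays read 324, 185, 499 and 334, against 131, 113, 97.5, 155 and 113 with vehicle, a rise of 1.37 ± 0.21 (adjusted p = 7.18e-06) with no overlap. Study 2 arrays read 167, 139, 163 and 185 with vehicle, 174, 128, 183, 197 and 193 at R1 20 and 152, 115, 248 and 272 at R1 100, and these groups overlapped (0.09 ± 0.21, adjusted p = 0.912 at R1 20 and 0.19 ± 0.23, adjusted p = 0.745 at R1 100). The other Slc3a2 probe set rose with R2 300 (1.92 ± 0.31, adjusted p = 1.22e-05) and R1 30 at 336 h (1.31 ± 0.31, adjusted p = 0.00299) and was not called at R1 100 after 24 h (0.98 ± 0.38, adjusted p = 0.134).

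Of the 10 amino acid and peptide carriers tested, the others called were Slc1a2 and Slc7a5 (27.4% of all genes were called in 1 or more of the 7 comparisons). Slc1a2, a glutamate transporter, was dim and fell at R1 100 after 24 h, with 10.4, 15.1 and 8.61 against 25.4, 26.9 and 19.7 on vehicle arrays (-0.93 ± 0.30, adjusted p = 0.0496). It also fell with R2 300, with 17.6, 8.98, 23.4, 16.8 and 9.63 against 25.8, 27.95, 20.5 and 31.7 (-0.75 ± 0.24, adjusted p = 0.0298), and here the groups overlapped. Its other 2 probe sets were called in neither. Both calls were close to the threshold. That at R1 100 ended without vehicle arrays 1, 2 or 3 or R1 100 arrays 1 or 3 (adjusted p up to 0.187) and with the smaller offset, no filter on dim probe sets, cyclic loess or each study fitted alone. That with R2 300 ended without vehicle arrays 1, 2 or 4 or R2 300 arrays 2 or 5 (adjusted p up to 0.111) and with each study fitted alone. Slc7a5, the light chain that pairs with Slc3a2 to import large neutral amino acids, rose at R1 100 after 336 h (28.7 ± 5.21 against 17.3 ± 7.61 with vehicle, SD, n = 4 each, 0.71 ± 0.24, adjusted p = 0.0471). That call ended without vehicle arrays 1, 2 or 3 or R1 100 arrays 1, 3 or 4 (adjusted p up to 0.281) and with no filter on dim probe sets, arrays weighted by quality or each study fitted alone (up to 0.134). Slc7a2 (cationic amino acids), Slc3a1 (cystine and dibasic amino acids), Slc1a1 (glutamate) and the peptide transporter Slc15a1 were called in none of the 7 comparisons.

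Of the 8 genes tested in the Slc2 and Slc5 families, most of which carry sugars, 3 fell with R2 300 (background 7.88% lower). Of these, Slc2a5 also fell with R1 100 after 24 h. Slc2a5, the fructose transporter of the plasma membrane, read 158, 79.4 and 57.5 with vehicle, 101, 88.8, 91.4 and 56.9 at R1 10, 91.9, 30.98 and 48.8 at R1 30 and 35.8, 29.9 and 26.6 at R1 100 in study 1. The R1 100 arrays lay below all vehicle and R1 10 arrays, and overlapped with R1 30. The fall was -1.47 ± 0.35 against vehicle (adjusted p = 0.00474) and -1.35 ± 0.33 against R1 10 (adjusted p = 0.0096). Its other probe set also fell against vehicle (-2.35 ± 0.45, adjusted p = 0.000354). The call on the brighter probe set ended without vehicle array 1 (adjusted p up to 0.105), and no left-out array ended that on the other. The call of the brighter probe set against R1 10 ended without R1 100 array 3 (adjusted p up to 0.0526).

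R2 300 arrays had Slc2a5 signals of 17.7, 6.63, 8.22, 21.6 and 21.7, against 53.6, 58.1, 78.7 and 58.1 with vehicle, with no overlap (-1.94 ± 0.29, adjusted p = 2.03e-06), and the other probe set fell as well (-1.98 ± 0.37, adjusted p = 0.000115). After 336 h, Slc2a5 was called at no dose: R1 30 read 18.2, 20.5, 16.7 and 13.7 and its vehicle 28.6, 31.7, 16.6, 22.5 and 25.3 (-0.45 ± 0.29, adjusted p = 0.413). Slc2a2, the main glucose transporter of hepatocytes, fell with R2 300 (276 ± 75.2, n = 5, against 445 ± 92.6, SD, n = 4, -0.71 ± 0.18, adjusted p = 0.00384), a call that ended with each study fitted alone (adjusted p up to 0.0663). Slc2a1, a glucose transporter that hepatocytes express weakly, fell too (9.84 ± 5.91 against 31.5 ± 11.1, -1.53 ± 0.32, adjusted p = 0.000442), on 1 of its 2 probe sets (the other -0.35 ± 0.34, adjusted p = 0.561). The other 5 genes of both families were called at no dose, among them Slc5a6, which carries the vitamins biotin and pantothenate, and Slc5a3, which carries myo-inositol.

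Of the 6 genes tested for carriers of nucleosides and nucleotide sugars, Slc28a2 and Slc29a1 were called against vehicle, and both fell. The share of all genes called in 1 or more of the 7 comparisons was 27.4%. Slc28a2, which takes up purine nucleosides with sodium, read 138, 68.3 and 102 in study 1 with vehicle, 96.5, 69.9, 61.5 and 101 at R1 10, 35.5, 20.8 and 76.2 at R1 30 and 50.6, 36.6 and 46.5 at R1 100. The fall was -1.29 ± 0.33 at R1 30 (adjusted p = 0.0258), where the groups overlapped, and -1.11 ± 0.33 at R1 100 (adjusted p = 0.0306), where they did not. The R1 30 call ended without vehicle arrays 1 or 3 or R1 30 arrays 1 or 2 (adjusted p up to 0.316) and with arrays weighted by quality or each study fitted alone (up to 0.0974). The R1 100 call ended without vehicle arrays 1 or 3 or R1 100 arrays 1, 2 or 3 (adjusted p up to 0.224) and with each study fitted alone (up to 0.0831). R2 300 arrays read 20.1, 32.7, 21.6, 24.9 and 36.1, against 60.6, 108, 128 and 165 with vehicle, without overlap (-1.93 ± 0.27, adjusted p = 7.94e-07), and no left-out array ended this call.

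Slc29a1, the equilibrative nucleoside transporter, read 71.8, 68.5, 99.5, 71.7 and 92.6 with R2 300, against 211, 145, 142 and 188 with vehicle (-1.05 ± 0.20, adjusted p = 0.000101). At R1 30 after 336 h it read 122, 109, 78.9 and 118, against 169.8, 163, 226, 165 and 181 with vehicle (-0.75 ± 0.20, adjusted p = 0.00663), and the groups overlapped in neither comparison. The R1 30 call ended without R1 30 array 3 (adjusted p up to 0.0645). In study 1 Slc29a1 was lower at R1 100 than at R1 10 (-0.83 ± 0.22, adjusted p = 0.0228), with 56.8, 162 and 94.3 against 199.7, 158, 171 and 159.9 and some overlap. This call ended without R1 10 array 1 or R1 100 arrays 1 or 3 (adjusted p up to 0.406) and with each study fitted alone. The difference was -0.46 without R1 100 array 1. Slc28a1 (pyrimidine nucleosides) was called at no dose. In study 2 neither Slc28a2 nor Slc29a1 was called, and its vehicle arrays were the dimmest of the 4 vehicles for both (58.6, 52.6, 54.5 and 57.3 for Slc28a2 and 72.6, 51.1, 66.8 and 68.04 for Slc29a1).

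**Figure D3:**
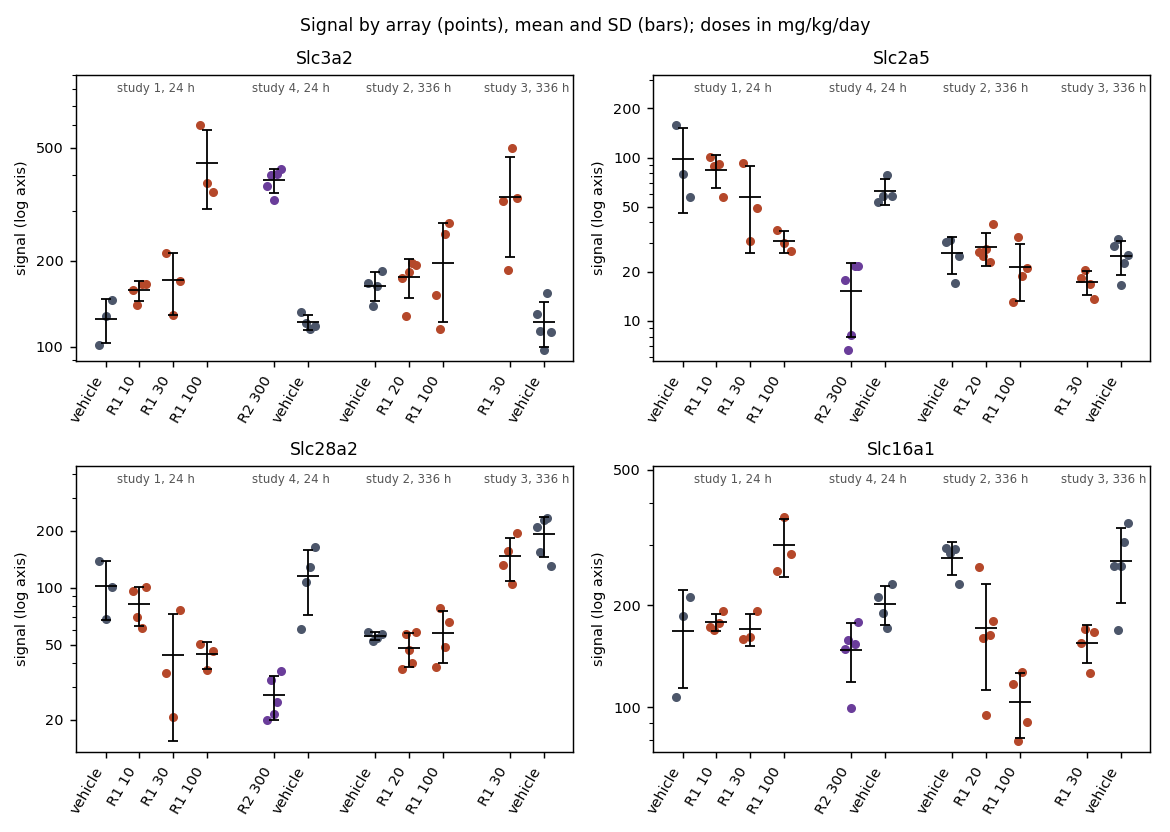
Signal (vertical log axis) of Slc3a2, Slc2a5, Slc28a2 and Slc16a1 on each array (points), with the mean and SD of each group (bars), by study and dose in mg/kg/day. Slc3a2 is high at R1 100 (24 h), R2 300 and R1 30 (336 h), Slc2a5 and Slc28a2 are low with R2 300, and Slc16a1 is lowest at R1 100 after 336 h.

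Of the 8 genes tested for carriers of monocarboxylates and citric acid cycle intermediates, 3 were called, in both directions. Among all genes tested, 27.4% were called in 1 or more of the 7 comparisons with vehicle. Slc16a1 (MCT1) carries lactate, pyruvate and ketone bodies with protons. After 24 h it read 252, 364 and 283 at R1 100, against 107, 185 and 211 with vehicle, a rise without overlap (0.86 ± 0.26, adjusted p = 0.0314). The other probe set did not show it (-0.05 ± 0.28, adjusted p = 0.957). The call ended without vehicle array 1 or R1 100 arrays 2 or 3 (adjusted p up to 0.309), and the rise was 0.58 without vehicle array 1. After 336 h it was called lower at each R1 dose on both probe sets. In study 2 it read 295, 286, 293 and 230.5 with vehicle, 259, 159.9, 94.7, 163 and 179 at R1 20 and 117, 79.6, 127 and 90.6 at R1 100. In study 3 it read 155, 170.1, 126 and 167 at R1 30, against 261, 169, 262, 307 and 349 with vehicle. All R1 100 arrays lay below all vehicle arrays of their study, and the R1 20 and R1 30 groups overlapped with theirs. The falls were -0.74 ± 0.21 at R1 20 (adjusted p = 0.0298), -0.76 ± 0.21 at R1 30 (adjusted p = 0.0126) and -1.41 ± 0.22 at R1 100 (adjusted p = 6.44e-06). No array ended the R1 100 call. The R1 20 call ended without vehicle arrays 1, 2 or 3 or R1 20 arrays 2, 3 or 4 (adjusted p up to 0.159) and with each study fitted alone (up to 0.103). The R1 30 call ended without R1 30 array 3 (adjusted p up to 0.0718). The dimmer probe set gave -0.86 ± 0.23, adjusted p = 0.0186 at R1 20, a call that ended without vehicle arrays 1, 2 or 3 or R1 20 array 1 (adjusted p up to 0.0541). At R1 30 it gave -0.73 ± 0.23, adjusted p = 0.0292, a call that ended without R1 30 arrays 1 or 3 or vehicle arrays 1 or 5 (adjusted p up to 0.131). The R1 20 mean of the brighter probe set (171) lay within the range of the other 3 vehicle means, and the study 2 vehicle (276) lay above that range. These means were 168 and 201 at 24 h and 269.5 at 336 h.

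Slc16a12, a creatine transporter, was higher than vehicle in all 7 comparisons (0.22 to 0.88 on the log2 scale) and was called in 3. It read 22.9, 24.5 and 26.1 with vehicle, 33.2, 31.8, 29.4 and 35.5 at R1 10, 39.6, 51.9 and 36.4 at R1 30 and 50.3, 39.2 and 42.999 at R1 100 in study 1, so that all dosed arrays lay above all vehicle arrays. The rise was called at R1 100 (0.78 ± 0.22, adjusted p = 0.0244), a call that ended without vehicle arrays 1 or 2 or R1 100 arrays 1 or 3 (adjusted p up to 0.132). It also rose without overlap at R1 30 after 336 h (28.3, 27.8, 25.5 and 22.8 against 13.9, 14.1, 15.9, 15.9 and 13.1, 0.73 ± 0.18, adjusted p = 0.00491) and with R2 300 (50.5, 34.97, 56.1, 40.003 and 37.3 against 22.2, 23.2, 21.5 and 21.4, 0.88 ± 0.18, adjusted p = 0.000458). Study 2 gave 20.6, 14.6, 15.9 and 13.1 with vehicle, 20.1, 23.6, 26.7, 14.5 and 13.04 at R1 20 and 29.5, 27.97, 20.5 and 16.8 at R1 100, with no call (0.22 ± 0.18, adjusted p = 0.649 and 0.48 ± 0.19, adjusted p = 0.125). Slc16a6, which carries ketone bodies and taurine, was dim. It rose with R2 300, 23.9, 15.4, 41.9, 29.1 and 28.2 against 11.1, 13.5, 4.48 and 12.3 (1.21 ± 0.43, adjusted p = 0.0482), and at R1 100 after 336 h, 25.05, 19.4, 7.07 and 8.20 against 4.46, 2.01, 3.94 and 1.59 (1.49 ± 0.45, adjusted p = 0.0242), without overlap. The R2 call ended without vehicle arrays 1, 2, 3 or 4 or R2 300 arrays 1, 3, 4 or 5 (adjusted p up to 0.189) and with the smaller offset, no filter on dim probe sets or no variance trend. The R1 100 call ended without vehicle arrays 2 or 4 or R1 100 arrays 1 or 2 (adjusted p up to 0.122). Slc16a7 (MCT2) and the dicarboxylate carriers Slc13a2 and Slc13a3 were called at no dose, Slc13a2 with -1.19 ± 0.45, adjusted p = 0.0649 for R2 300.

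Of the 8 genes tested for carriers of bile acids and organic ions, 3 were called, and all 3 fell. Over all genes tested, 27.4% were called in 1 or more of the 7 comparisons with vehicle. Slc22a7 (OAT2), an organic anion transporter of the sinusoidal membrane, was lower than vehicle in all 7 comparisons (-0.83 to -0.44) and was called in 4. In study 1 it read 539, 389 and 439 with vehicle, 218, 269, 300.0 and 345 at R1 10, 275, 290.3 and 324 at R1 30 and 217, 278 and 266 at R1 100, and no dosed array reached the vehicle arrays. R1 100 was called (-0.83 ± 0.21, adjusted p = 0.00786), a call that ended without vehicle array 1 or R1 100 array 1 (adjusted p up to 0.0801), and R1 10 was not (-0.69 ± 0.20, adjusted p = 0.0702). The signal in study 2 was 344, 318, 299 and 354 with vehicle, 203, 225, 225, 232 and 343 at R1 20 and 160.1, 197, 170.3 and 234 at R1 100. R1 100 was called (-0.79 ± 0.18, adjusted p = 0.00163), and R1 20, where array 5 lay among the vehicle arrays, was not (-0.44 ± 0.17, adjusted p = 0.168). After 336 h in study 3 it read 188, 183, 149 and 234 at R1 30, against 298, 347, 347, 334 and 266 with vehicle (-0.76 ± 0.17, adjusted p = 0.00169). R2 300 arrays read 215, 246, 124, 174 and 156, against 250.4, 324, 312 and 312 with vehicle (-0.73 ± 0.17, adjusted p = 0.00177). R1 100 in study 2, R1 30 in study 3 and R2 300 did not overlap with their vehicles, and no left-out array ended these 3 calls. The other probe set was called at R1 100 after 336 h (-0.89 ± 0.28, adjusted p = 0.0283), a call that ended without vehicle arrays 1, 2 or 4 or R1 100 arrays 1 or 3 (adjusted p up to 0.129), and missed the threshold with R2 300 (-0.73 ± 0.26, adjusted p = 0.0523).

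Slc10a1, the sodium-dependent bile acid uptake carrier of hepatocytes, fell at R1 30 after 336 h (1226 ± 238, n = 4, against 1806 ± 266, SD, n = 5, -0.57 ± 0.19, adjusted p = 0.0398) and with R2 300 (1425 ± 285, n = 5, against 2057 ± 304, n = 4, -0.54 ± 0.19, adjusted p = 0.0431). The R1 30 call ended without R1 30 arrays 1 or 3 or vehicle arrays 1, 2, 4 or 5 (adjusted p up to 0.257) and with no filter on dim probe sets, no variance trend or cyclic loess (up to 0.0625). The R2 call ended without vehicle arrays 1 or 4 or R2 300 arrays 1, 2 or 5 (adjusted p up to 0.132) and with no filter on dim probe sets, no variance trend, cyclic loess, arrays weighted by quality or each study fitted alone (up to 0.107). The carnitine carrier Slc22a5 is described with the fatty acid carriers, and the other 5 genes were called at no dose.

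Slc25a20, Slc22a5 and Slc27a2 serve fatty acid oxidation, and each fell at R1 100 after 336 h. They come from 3 lists of carriers and were put together after their values were seen. In that comparison 1 of 2 fatty acid carriers tested fell, 1 of 13 mitochondrial carriers fell and 1 rose, and 2 of 8 carriers of bile acids and organic ions fell (background 5.2% lower). Slc25a20 exchanges acylcarnitine for carnitine across the inner mitochondrial membrane, Slc22a5 (OCTN2) brings carnitine into the cell, and Slc27a2 takes up and activates long and very long chain fatty acids in the plasma membrane and peroxisomes. Their promoters are shown because these 3 genes moved the same way in 1 comparison (RefSeq, build GRCr8, 250 bases before to 50 after the gene start, 5′ to 3′ on the strand of the gene). They lie at chr8:118243323-118243622 (plus strand) for Slc25a20, chr3:134257851-134258150 (plus strand) for Slc27a2 and chr10:38536023-38536322 (minus strand) for Slc22a5. Capitals mark AGGTCA, a short motif that many nuclear receptors bind, searched on both strands.
Slc25a20: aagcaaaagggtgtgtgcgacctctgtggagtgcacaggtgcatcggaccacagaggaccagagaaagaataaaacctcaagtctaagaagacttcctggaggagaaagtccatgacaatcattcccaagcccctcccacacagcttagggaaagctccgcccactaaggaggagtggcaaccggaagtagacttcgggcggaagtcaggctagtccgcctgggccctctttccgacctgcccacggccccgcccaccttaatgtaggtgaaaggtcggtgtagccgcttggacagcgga
Slc27a2: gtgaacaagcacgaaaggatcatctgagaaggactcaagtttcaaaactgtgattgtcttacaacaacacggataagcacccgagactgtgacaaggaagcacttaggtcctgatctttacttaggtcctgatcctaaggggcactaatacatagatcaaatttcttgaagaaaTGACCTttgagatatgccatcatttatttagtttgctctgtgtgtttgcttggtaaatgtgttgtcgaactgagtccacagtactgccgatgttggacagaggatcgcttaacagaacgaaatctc
Slc22a5: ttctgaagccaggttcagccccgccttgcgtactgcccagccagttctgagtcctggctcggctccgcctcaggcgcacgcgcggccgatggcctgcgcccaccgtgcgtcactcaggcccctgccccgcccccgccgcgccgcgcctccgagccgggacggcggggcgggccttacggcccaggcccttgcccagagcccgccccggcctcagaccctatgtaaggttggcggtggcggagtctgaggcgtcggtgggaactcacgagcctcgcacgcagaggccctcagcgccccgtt
The Slc27a2 window held 1 match, on the minus strand (bases 175 to 180 of the window, printed there as TGACCT), and the other 2 windows held none. Of all 33469 promoters in the table, 16.2% held the motif, as did 12 of the 99 Slc genes matched to a promoter.

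Slc25a20 read 361, 372, 444 and 379.6 with vehicle, 303, 272, 322, 321 and 390.3 at R1 20 and 125, 141, 104 and 115 at R1 100 in study 2. All R1 100 arrays lay below all others of the study. The fall was -1.66 ± 0.18 against vehicle (adjusted p = 2.12e-09) and -1.39 ± 0.17 against R1 20 (adjusted p = 1.02e-07). Slc27a2 had 1118 ± 132 at R1 100, against 2136 ± 91.1 with vehicle (SD, n = 4 each, -0.94 ± 0.16, adjusted p = 1.59e-05), and was also below R1 20 (2024 ± 223, n = 5, -0.85 ± 0.15, adjusted p = 7.24e-05). Slc22a5 had 19.2 ± 13.7 at R1 100, against 47.3 ± 16.5 with vehicle (-1.39 ± 0.44, adjusted p = 0.0319), and was below R1 20 (50.2 ± 13.5, -1.48 ± 0.41, adjusted p = 0.0285). Its groups overlapped, and its call against vehicle ended without vehicle arrays 2 or 4 or R1 100 arrays 2 or 3 (adjusted p up to 0.238). The log2 fold change was -0.90 without R1 100 array 3. The call against R1 20 ended without R1 20 arrays 3, 4 or 5 or R1 100 arrays 2 or 3 (adjusted p up to 0.267). No left-out array ended the calls of Slc25a20 and Slc27a2.

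The vehicle arrays of study 2 stood apart for these genes. Slc25a20 averaged 389 there, against 99.8 to 144 in the other 3 vehicle groups, so its mean at R1 100 (121) fell within the range of the other vehicles. Slc22a5 did the same (19.2 at R1 100, vehicles of the other studies 14.5 to 24.3). Slc27a2 averaged 2136 in the study 2 vehicle, also above the other 3 vehicle means (1282 to 1690). Its mean of 1118 at R1 100 lay below all 4 vehicle means. Vehicle of study 3 was lower than vehicle of study 2 for Slc25a20 (-1.93 ± 0.17, adjusted p = 2.37e-11) and Slc22a5 (-1.48 ± 0.41, adjusted p = 0.00891). At R1 30 after 336 h, in study 3, Slc25a20 read 88.4, 106, 88.8 and 101, against 101, 97.9, 104, 92.97 and 103 with vehicle (-0.06 ± 0.17, adjusted p = 0.915). With R2 300 it was higher, 225, 223, 131, 219.6 and 165 against 85.5, 152, 157 and 136 (0.54 ± 0.17, adjusted p = 0.0286), with overlap. That call ended without vehicle array 1 or R2 300 arrays 1, 2 or 4 (adjusted p up to 0.213) and with arrays weighted by quality or each study fitted alone, and the rise was 0.34 without vehicle array 1. Slc27a1, a fatty acid carrier of muscle and fat that liver expresses weakly, fell with R2 300 (29.8 ± 8.80 against 47.6 ± 11.9, -0.64 ± 0.19, adjusted p = 0.0153), a call that ended without vehicle array 1 or R2 300 arrays 1 or 5 (adjusted p up to 0.1) and with each study fitted alone.

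Other Slc25 carriers also moved. Slc25a17, the peroxisomal carrier of CoA, FAD and NAD, was higher than vehicle in all 7 comparisons (0.25 to 0.97) and was called in 4. In study 1 it read 121, 146 and 139.8 with vehicle, 141, 162, 186 and 158 at R1 10, 218, 220.0 and 176 at R1 30 and 276, 254 and 253 at R1 100. The R1 100 arrays lay above all others of the study (0.94 ± 0.22, adjusted p = 0.00486), and no left-out array ended that call. In study 2 it read 156, 137, 141 and 133 with vehicle, 225, 169, 334, 207 and 197 at R1 20 and 226, 162, 184 and 166 at R1 100. All dosed arrays lay above all vehicle arrays, R1 20 was called (0.63 ± 0.18, adjusted p = 0.0348) and R1 100 was not (0.36 ± 0.19, adjusted p = 0.29). The R1 20 call ended without vehicle arrays 2, 3 or 4 or R1 20 arrays 1, 3 or 4 (adjusted p up to 0.168) and with each study fitted alone. At R1 30 after 336 h it read 211, 223, 238 and 223, against 148, 120.1, 156, 144 and 152 with vehicle, without overlap (0.63 ± 0.18, adjusted p = 0.017), a call that ended without R1 30 array 3 or vehicle array 2 (adjusted p up to 0.0616). R2 300 arrays read 179, 189.8, 351, 241 and 209.8, against 192, 95.6, 97.7 and 93.9 with vehicle (0.97 ± 0.18, adjusted p = 0.000119). Vehicle array 1 alone overlapped with R2 300, and without it the rise was 1.22.

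Slc25a23, the calcium-regulated carrier of ATP-magnesium and phosphate in mitochondria, fell at R1 100 after 24 h and rose at R1 100 after 336 h. It read 66.005, 54.5 and 34.5 with vehicle, 30.6, 59.3, 31.2 and 39.2 at R1 10, 39.8, 28.8 and 28.8 at R1 30 and 14.8, 26.02 and 25.5 at R1 100 in study 1 (-1.12 ± 0.30, adjusted p = 0.0138 at R1 100), a call that ended without vehicle arrays 1 or 2 or R1 100 array 1 (adjusted p up to 0.138). R2 300 gave 40.03, 26.9, 26.1, 20.9 and 20.6, against 67.8, 80.3, 58.9 and 75.9 with vehicle (-1.33 ± 0.25, adjusted p = 9.12e-05). In study 2 it read 33.4, 15.8, 24.7 and 19.5 with vehicle, 38.5, 43.1, 28.3, 34.2 and 30.9 at R1 20 and 53.5, 75.2, 40.03 and 58.98 at R1 100, a rise at R1 100 of 1.20 ± 0.26 (adjusted p = 0.000806). None of these 3 called pairs of groups overlapped. The study 2 vehicle was again low, at 23.4 against 51.7 to 70.7 in the other vehicle groups, and the R1 100 mean of 56.9 lay among those. In study 3, R1 30 read 40.1, 77.3, 27.9 and 63.5, against 72.9, 64.8, 51.9, 53.2 and 63.6 with vehicle (-0.31 ± 0.25, adjusted p = 0.546).

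Slc25a51, the mitochondrial NAD carrier, fell at R1 100 after 24 h (67.8 ± 6.38 against 114 ± 15.01, SD, n = 3 each, -0.72 ± 0.20, adjusted p = 0.0187), a call that ended without vehicle array 1 or R1 100 array 1 (adjusted p up to 0.135). The study 1 vehicle was high for this gene, as the other vehicle groups averaged 48.1 to 52.2. The R1 100 mean lay above all of those. Slc25a5, an ADP/ATP carrier, fell with R2 300 (1305 ± 362 against 1785 ± 202, -0.49 ± 0.13, adjusted p = 0.00692), a call that ended with each study fitted alone (adjusted p up to 0.173). Slc25a10, the dicarboxylate carrier, had 1 of 3 probe sets higher with R2 300 (0.92 ± 0.27, adjusted p = 0.0144), while its brightest gave -0.23 ± 0.15. The higher probe set lost its call without vehicle array 1 or R2 300 arrays 1 or 2 (adjusted p up to 0.104) and with arrays weighted by quality or each study fitted alone (up to 0.33). The comparison of both doses in study 2 called Slc25a1, the citrate carrier, higher at R1 100 than at R1 20 (477 ± 127 against 244 ± 48.2, 0.94 ± 0.26, adjusted p = 0.0241) and Slc25a11, the oxoglutarate carrier, lower (167 ± 63.3 against 252 ± 51.99, -0.63 ± 0.19, adjusted p = 0.0457). Neither was called against vehicle (0.34 ± 0.27, adjusted p = 0.549 and -0.53 ± 0.20, adjusted p = 0.0924). The Slc25a1 call ended without R1 20 arrays 1 or 2 or R1 100 arrays 1 or 3 (adjusted p up to 0.124). The Slc25a11 call ended without R1 20 arrays 3, 4 or 5 or R1 100 arrays 1, 2 or 3 (adjusted p up to 0.244) and with no filter on dim probe sets, no variance trend, cyclic loess, arrays weighted by quality or each study fitted alone. The ADP/ATP carrier Slc25a4 was called at no dose.

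Slc17a1, a carrier of phosphate and of organic anions such as urate, rose at R1 100 after 336 h. Its signal was 45.5, 45.1, 45.6 and 57.8 with vehicle, 87.9, 64.7, 51.9, 95.7 and 103 at R1 20 and 142, 145, 201 and 109 at R1 100, and R1 100 lay above all other arrays of the study (1.54 ± 0.27, adjusted p = 4.41e-05 against vehicle and 0.88 ± 0.26, adjusted p = 0.0405 against R1 20). The call against vehicle held on 2 of 3 probe sets and without each array in turn. That against R1 20 ended without R1 20 arrays 2 or 3 or R1 100 arrays 1, 2 or 3 (adjusted p up to 0.203) and with no filter on dim probe sets, no variance trend or arrays weighted by quality. The vehicle of study 2 (48.5) was below the other vehicles (87.9 to 114), and the R1 100 mean (149) lay above them. With R2 300 it was lower, 56.3, 43.98, 37.1, 61.9 and 104 against 75.3, 129, 107 and 115, with overlap (-0.85 ± 0.26, adjusted p = 0.0185). This call ended without vehicle arrays 2 or 4 or R2 300 arrays 2 or 3 (adjusted p up to 0.0724) and with each study fitted alone (up to 0.0714).

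**Figure D4:**
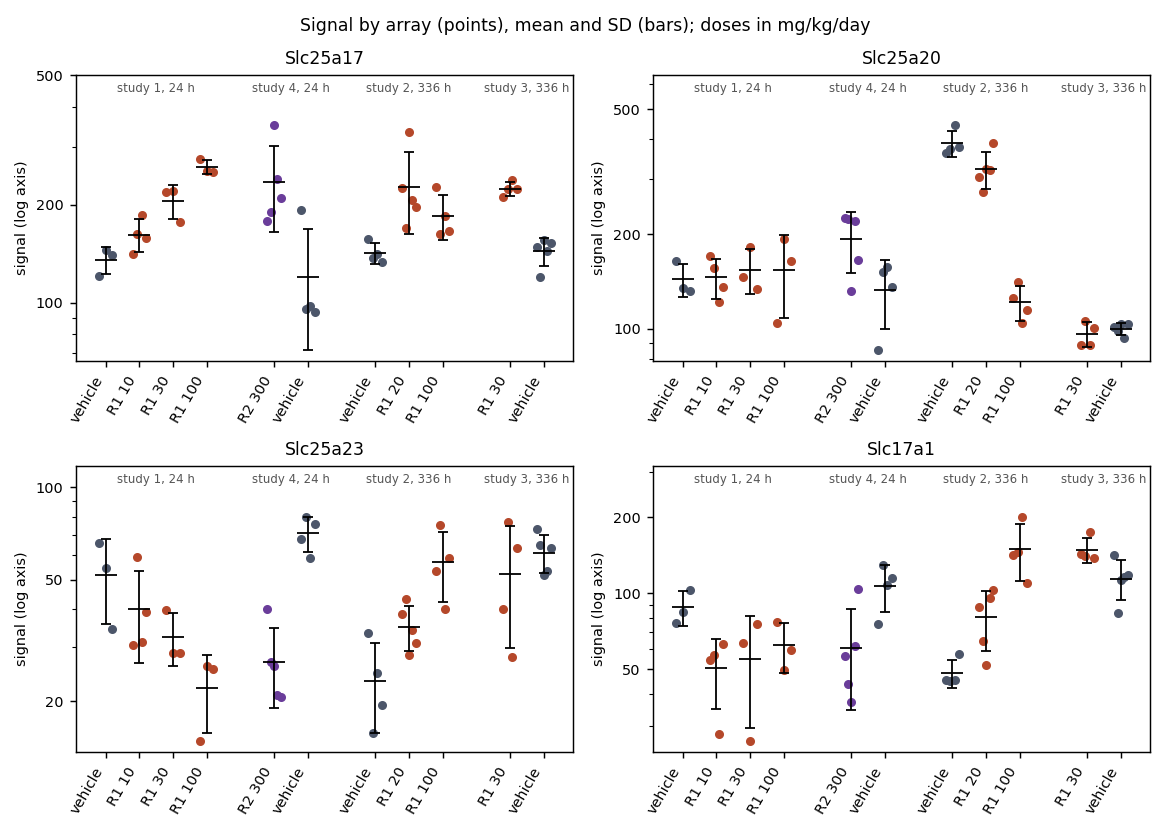
Signal (vertical log axis) of Slc25a17, Slc25a20, Slc25a23 and Slc17a1 on each array (points), with the mean and SD of each group (bars), by study and dose in mg/kg/day. Slc25a20 is higher in the study 2 vehicle and R1 20 groups than in all other groups, and Slc25a23 and Slc17a1 are low in the study 2 vehicle.

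Carriers of ions and metals gave scattered calls. Slc41a2, a magnesium transporter, fell at R1 30 after 336 h, 152, 258, 188 and 230.1 against 336, 463, 415, 401 and 449 (-1.004 ± 0.20, adjusted p = 0.000254), and with R2 300, 239, 219, 375, 285 and 217 against 697, 393, 458 and 479.8 (-0.92 ± 0.20, adjusted p = 0.000637). The groups overlapped in neither, and no left-out array ended these calls. Study 2 gave 264, 355, 334 and 353 with vehicle, 208, 271, 401, 319.5 and 349.9 at R1 20 and 306, 382, 340.2 and 256 at R1 100, with no call (-0.10 ± 0.20, adjusted p = 0.892 and -0.03 ± 0.21, adjusted p = 0.969). It was also lower at R1 100 than at R1 10 after 24 h (475, 295 and 523 against 848, 744, 704 and 559, -0.75 ± 0.22, adjusted p = 0.0435). That call ended without R1 10 arrays 1, 2 or 3 or R1 100 arrays 1 or 2 (adjusted p up to 0.34) and with no filter on dim probe sets, no variance trend, cyclic loess or each study fitted alone (up to 0.0672), and the difference was -0.50 without R1 100 array 2. Slc30a4, a zinc exporter, was higher at R1 30 after 336 h (18.7 ± 2.48 against 11.3 ± 6.58, 0.76 ± 0.26, adjusted p = 0.0462), a call that ended without R1 30 arrays 1, 2, 3 or 4 or vehicle arrays 3 or 4 (adjusted p up to 0.243) and with the larger offset, no filter on dim probe sets, arrays weighted by quality or each study fitted alone (up to 0.249), with a rise of 0.44 without vehicle array 3. The study 3 vehicle was low for Slc30a4. The other vehicle groups averaged 20.6 to 29.2, all above the R1 30 mean. Ferroportin (Slc40a1), the iron exporter, missed the threshold with 0.76 ± 0.27, adjusted p = 0.067 at R1 100 and 0.70 ± 0.26, adjusted p = 0.0727 at R1 30 after 336 h, and -0.71 ± 0.26, adjusted p = 0.0533 with R2 300. The divalent metal transporter Slc11a2 and the zinc exporter Slc30a1 were called at no dose, Slc30a1 with 1.63 ± 0.57, adjusted p = 0.0777 at R1 100 after 24 h.

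Slc26a1, a sulfate and oxalate exchanger, fell at R1 20 (207 ± 38.01, n = 5, against 306 ± 26.4, SD, n = 4, -0.57 ± 0.16, adjusted p = 0.0273) and at R1 30 after 336 h (164 ± 20.2, n = 4, against 244 ± 38.7, n = 5, -0.56 ± 0.16, adjusted p = 0.0166). The R1 20 call ended without vehicle arrays 2, 3 or 4 or R1 20 arrays 2, 3 or 4 (adjusted p up to 0.11) and with each study fitted alone (up to 0.0865). The R1 30 call ended without R1 30 array 3 or vehicle array 2 (adjusted p up to 0.0776). Slc4a4, a sodium bicarbonate cotransporter, rose at R1 30 after 336 h (46.6 ± 14.7 against 19.5 ± 11.7, 1.23 ± 0.34, adjusted p = 0.0128), a call that ended without R1 30 array 3 or vehicle array 4 (adjusted p up to 0.0739). It also differed between vehicles: study 3 was below study 2 (19.5 ± 11.7 against 157 ± 34.6, -2.94 ± 0.34, adjusted p = 1.38e-08) and study 4 below study 1 (15.3 ± 2.71 against 81.1 ± 36.4, -2.13 ± 0.39, adjusted p = 0.000325). With R2 300, Slc12a4, a potassium chloride cotransporter, rose (38.2 ± 8.26 against 19.7 ± 8.90, 0.95 ± 0.31, adjusted p = 0.0286) on 1 of 2 probe sets. Its call ended without vehicle arrays 1 or 3 or R2 300 array 2 (adjusted p up to 0.204) and with arrays weighted by quality or each study fitted alone (up to 0.107), and the rise was 0.62 without vehicle array 1. Slc4a2, an anion exchanger that bile duct cells also use, was called with R2 300 on its dimmer probe set (94.9 ± 51.6 against 38.2 ± 6.46, 1.11 ± 0.25, adjusted p = 0.00135) and not on the brighter (0.36 ± 0.27, adjusted p = 0.407). Epcam, a bile duct marker, also rose with R2 300 (1.08), while the other 3 bile duct markers tested were not called, and its part in the Slc4a2 result was not tested. The anion exchanger Slc4a1 and the sodium potassium chloride cotransporter Slc12a2 were called at no dose.

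Among carriers named for neurotransmitters, Slc6a13 (GAT2), which takes up GABA and taurine and is known in liver, fell after 336 h in study 2. Its signal averaged 226 ± 40.98 with vehicle, 139.7 ± 32.3 at R1 20 and 125 ± 45.2 at R1 100 (-0.70 ± 0.21, adjusted p = 0.0388 and -0.89 ± 0.22, adjusted p = 0.00342). That vehicle lay above the other vehicle means (150 to 176), and both dosed means lay below them. Slc6a13 was not called at R1 30 after 336 h, in study 3. The R1 20 call ended without vehicle arrays 3 or 4 or R1 20 arrays 1, 2 or 4 (adjusted p up to 0.167) and with no variance trend or each study fitted alone (up to 0.137), and no left-out array ended the R1 100 call. Slc6a5 (glycine) and Slc6a20a (proline) were dim and rose with R2 300. Slc6a5 averaged 12.7 ± 12.1, against 3.11 ± 0.606 with vehicle (1.01 ± 0.35, adjusted p = 0.0422), and Slc6a20a 11.95 ± 2.34 against 4.70 ± 4.70 (1.11 ± 0.38, adjusted p = 0.0379), both with overlap. The Slc6a5 call ended without vehicle arrays 1, 2, 3 or 4 or R2 300 arrays 1 or 2 (adjusted p up to 0.212) and with arrays weighted by quality or each study fitted alone (up to 0.247), with a rise of 0.67 without R2 300 array 2. The Slc6a20a call ended without vehicle arrays 1, 2 or 4 or R2 300 arrays 2, 3, 4 or 5 (adjusted p up to 0.122) and with each study fitted alone (up to 0.0639). The 5 tested genes of the families Slc14, Slc19, Slc23 and Slc44, among them the reduced folate carrier Slc19a1, were called at no dose.

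R1 at 100 mg/kg/day was given in study 1 (24 h) and study 2 (336 h), and the difference between both effects was tested. It was called for 10 Slc probe sets, 5 higher and 5 lower (7.87%, background 5.3%, 2.17% higher and 3.13% lower), in 7 genes by their brightest probe set. Slc25a23 had fold changes of -1.12 at 24 h and 1.20 at 336 h, Slc16a1 had 0.86 and -1.41, and both genes were called at each time in opposite directions. Both calls at 24 h ended when single arrays were left out, as given above. The other Slc16a1 probe set did not show the rise at 24 h. Slc6a13 had 0.71 at 24 h, which was not called, and -0.89 at 336 h. The difference, fold change at 336 h minus that at 24 h, was 2.32 ± 0.40, adjusted p = 0.000103 for Slc25a23, -2.27 ± 0.34, adjusted p = 1.09e-05 for Slc16a1 and -1.60 ± 0.33, adjusted p = 0.00152 for Slc6a13. The difference was also called for Slc17a1 (2.03 ± 0.42, adjusted p = 0.00124) and Slc25a20 (-1.72 ± 0.28, adjusted p = 5.15e-05), which were called against vehicle at 336 h, and for Slc3a2 (-1.58 ± 0.35, adjusted p = 0.00267) and Slc25a51 (0.89 ± 0.27, adjusted p = 0.037), which were called at 24 h. Of these, the call of Slc25a51 ended without vehicle of study 1 arrays 1 or 2 or R1 100 of study 1 arrays 1 or 3 or vehicle of study 2 arrays 1, 2 or 3 or R1 100 of study 2 arrays 1 or 2 (adjusted p up to 0.135) and with each study fitted alone, and no left-out array ended the others. For Slc2a5 the dimmer probe set was called (2.36 ± 0.60, adjusted p = 0.0101), a call that ended without vehicle of study 1 array 1 (adjusted p up to 0.0582), and the brighter was not (1.19 ± 0.46, adjusted p = 0.144). Time, study and vehicle cannot be told apart in this difference. For R1 30 the difference between study 3 (336 h) and study 1 (24 h) was called for 0 Slc probe sets by limma (background 0.959%, 0.503% higher and 0.456% lower), for 0 under every other setting tried, and 17 had an unadjusted p under 0.05 (13.4%, against 9.89% of all).

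**Figure D5:**
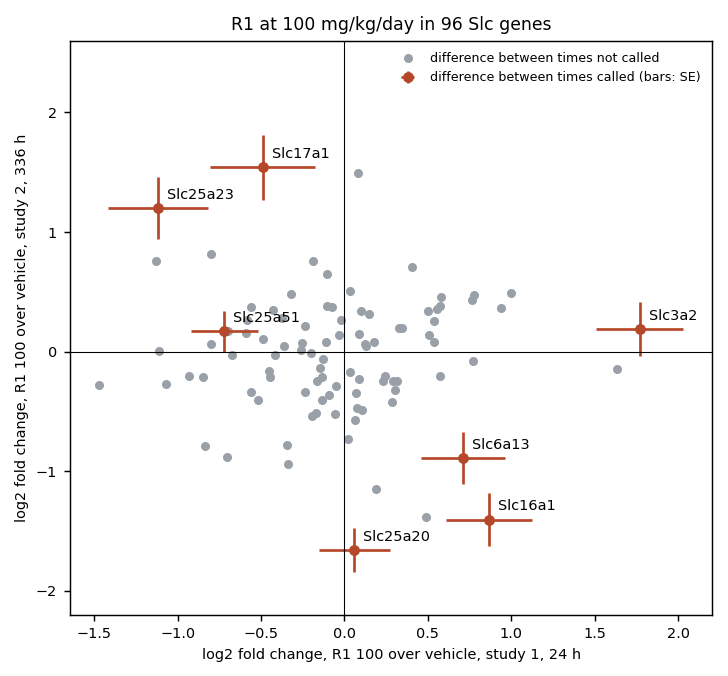
Log2 fold change of R1 100 over vehicle at 24 h in study 1 (horizontal axis) and at 336 h in study 2 (vertical axis) for 96 Slc genes (points). Named genes were called for the difference between times (bars are SE), with Slc25a23 and Slc17a1 at upper left and Slc16a1, Slc6a13 and Slc25a20 below 0 at 336 h.

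Vehicle livers also differed between studies of the same duration. Between study 3 and study 2 (336 h), 16 Slc probe sets were called, 8 higher and 8 lower (12.6%, background 17.8%, 8.55% higher and 9.29% lower). Besides those named above, Slc28a2 (1.70), Slc29a1 (1.45), Slc25a23 (1.32), Slc17a1 (1.18) and Slc25a10 (0.51) were higher in study 3, and Slc7a2 (-1.40), Slc30a4 (-1.31) and Slc13a3 (-1.15) were lower. The Slc25a10 call ended without vehicle of study 2 array 3 (adjusted p up to 0.0656). Slc34a1, Slc16a1 and Slc25a11 were called on a dimmer probe set alone. Between study 4 and study 1 (24 h), 2 were called higher and 3 lower (3.94%, background 5.64%, 2.63% higher and 3.02% lower). Slc3a1 (1.05 ± 0.28, adjusted p = 0.0162) and Slc25a4 (0.97 ± 0.25, adjusted p = 0.0124) were higher, and Slc7a2 (-1.45 ± 0.41, adjusted p = 0.0243), Slc25a51 (-1.09 ± 0.19, adjusted p = 0.000156) and Slc4a4 were lower in study 4. Without study 1 vehicle array 1 the count was 2. The call of Slc3a1 ended without vehicle of study 1 arrays 1 or 3 (adjusted p up to 0.0938) and with each study fitted alone. That of Slc25a4 ended without vehicle of study 1 array 1 (adjusted p up to 0.142), and that of Slc7a2 without vehicle of study 1 arrays 1 or 2 or vehicle of study 4 array 2 (adjusted p up to 0.134).

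A call against vehicle also depends on where that vehicle lay. The vehicle mean of the same study was outside the range of the other 3 vehicle means for 5 of 10 genes called at R1 100 and 0 of 1 at R1 30 after 24 h. After 336 h this held for 2 of 4 at R1 20, 9 of 10 at R1 100 and 6 of 11 at R1 30, and it held for 12 of 21 with R2 300. For any gene, the lowest and the highest of 4 vehicle means lie outside the range of the other 3. The share over all probe sets was not computed, so these counts have no background and are not read as a result. In 9 of the calls with the own vehicle outside, the dosed mean lay within the range of the other vehicles. They were Slc2a5 at R1 100 after 24 h, Slc16a1 at R1 20, Slc22a5, Slc25a20 and Slc25a23 at R1 100 after 336 h, Slc29a1 at R1 30 after 336 h, and Slc10a1, Slc1a2 and Slc25a23 with R2 300. Slc2a5 averaged 30.8 at R1 100, against 98.2 with vehicle, and the other vehicles averaged 62.2 at 24 h and 25.96 and 24.9 at 336 h. Slc29a1 averaged 107 at R1 30, against 181 with vehicle, and the other vehicles 158 and 171 at 24 h and 64.6 at 336 h. With R2 300 Slc10a1 averaged 1425, against 2057 with vehicle, and the other vehicles 1545 at 24 h and 1317 and 1806 at 336 h. Slc1a2 averaged 15.3, against 26.5, and the other vehicles 23.96 at 24 h and 17.9 and 13.2 at 336 h. Slc25a23 averaged 26.9, against 70.7, and the other vehicles 51.7 at 24 h and 23.4 and 61.3 at 336 h. Among the calls after 24 h in this list, each dosed mean lay below the vehicle mean of the other 24 h study. Not in this list are Slc25a51 at R1 100 after 24 h and Slc30a4 at R1 30 after 336 h. Their dosed means lay between the own vehicle and the range of the other vehicles. Slc25a51 averaged 67.8, against 114 with vehicle and 48.1 to 52.2 in the other vehicles. Slc30a4 averaged 18.7, against 11.3 with vehicle and 20.6 to 29.2 in the other vehicles.

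Other transporter genes were called in the same comparisons. The list held 23 tested genes for Slco carriers, ABC pumps, ATPases and aquaporins. In this paragraph, percentages in parentheses are the background over all probe sets tested, and not shares of the 23. After 24 h R1 10 called 1 of 23, which was higher (background 1.24%, 1.04% higher). R1 30 called 2, both higher (1.73%, 1.48% higher). R1 100 called 6, 4 higher and 2 lower (6.4%, 3.96% higher and 2.44% lower). After 336 h R1 20 called 4, 3 higher and 1 lower (4.43%, 2.55% higher and 1.89% lower). R1 100 called 8, 4 higher and 4 lower (10.3%, 5.11% higher and 5.2% lower). R1 30 called 8, 4 higher and 4 lower (11.3%, 5.27% higher and 6.01% lower). R2 300 called 12, 7 higher and 5 lower (15.3%, 7.44% higher and 7.88% lower). Slco1a4, an uptake carrier of organic anions and bile acids, was higher in all 7 comparisons with vehicle, with log2 fold changes of 1.75 to 2.99. Abcc2, which exports conjugates into bile, was called higher in 6 (0.80 to 1.72), and Abcc3, which exports them into blood, in 4 (1.49 to 3.03). Aqp9, the glycerol channel, was called lower in 5 (-0.93 to -1.61). Doses of studies 1 and 2 share their vehicle arrays in these counts. R1 and R2 were given at different doses, so their values stand side by side and no difference between the compounds was tested.

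Markers of other liver cells moved in some of the same groups, and their part in the results was not tested. Epcam, 1 of 4 bile duct markers tested, rose at R1 20 (1.07), R1 100 (1.64) and R1 30 (1.30) after 336 h and with R2 300 (1.08). The other 3 were not called, and the median log2 fold change of the 4 was -0.21 at R1 20, 0.42 at R1 100 and 0.22 at R1 30 after 336 h and 0.55 with R2 300. The summed signal of the 4 was 71.4 to 106 with R2 300, against 37.6 to 72.2 with vehicle. It was 62.1 to 108 at R1 20 and 81.6 to 181 at R1 100 (336 h), against 42.1 to 86.8 with vehicle, and 107 to 148 at R1 30 (336 h), against 43.3 to 107 with vehicle. Clec4f, the Kupffer cell marker tested, fell at R1 20 (-0.88), R1 100 (-1.31) and R1 30 (-0.82) after 336 h. Its signal was 114 to 175 at R1 100, against 263 to 445 with vehicle, and 138 to 209 at R1 30, against 282 to 355 with vehicle. Kdr, 1 of 3 endothelial markers, fell at R1 100 (-0.91) and R1 30 (-1.19) after 336 h, and at R1 30 Col1a1 and Col3a1 of 4 stellate cell and fibroblast markers and both erythroid markers, Hbb and Alas2, fell too (-0.84 to -1.51). The summed endothelial signal was 23.4 to 47.4 at R1 30, against 46.7 to 59.0 with vehicle. That of the stellate cell and fibroblast markers was 142 to 234, against 211 to 713, and that of the erythroid markers 1227 to 2501, against 2735 to 4896. With R2 300 Acta2 fell (-1.93). The 3 mast cell and 3 T and B cell markers tested were called at no dose. Of 5 hepatocyte markers, Cps1 fell at R1 100 (24 h and 336 h), R1 30 (336 h) and R2 300, with log2 fold changes of -0.72 to -1.68. Tat also fell with R2 300 (-1.13), and Apoa1 rose at R1 100 (0.43) and R1 30 (0.59) after 336 h.

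Genes with no tested probe set were Slc1a6, Slc7a1, Slc7a3, Slc22a3, Slc22a13, Slc12a1, Slc12a5, Slc24a2, Slc8a3, Slc9a2, Slc9a3, Slc9a4, Slc13a1, Slc18a1, Slc6a15, Slc6a17, Slc6a18, Slc35f6, Slc17a7, Slc37a1, Slc5a2, Slc5a5 and Slc52a3. For these 23 genes no group mean reached a signal of 9.17, and no difference is given.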

How the data were processed

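Liver RNA was measured on 44 one-colour Affymetrix rat arrays. The deposited values are probe set intensities, made with MAS5 per the submitters' processing notes, with its version not given in the sources used here. In the deposited table every array has the same sorted values (difference 0.0), as quantile normalization gives, although no source used here names that step, and the table holds no overall shift between arrays. Each probe set is thus measured relative to the others of its array.

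Gene names came from GEO's platform annotation, with 7017 probe sets under 1 symbol, 297 under several and 1426 under none; promoters and current names came from RefSeq (GRCr8). From the deposited intensity, log2(signal + 2.888) was taken (percentile 20 of all values). Probe sets were kept where the highest group mean reached 9.17 (percentile 40), which left 6361 after 59 control probe sets were removed. One fit over all 11 groups (limma 3.58.1 in R 4.3.3, trend in eBayes) gave 13 comparisons, with Benjamini-Hochberg adjustment over all probe sets tested. Sharing the spread over studies lends precision to groups of 3 arrays. Tables and figures used Python 3.11.15, numpy 2.4.6, pandas 2.3.3 and matplotlib 3.10.9. The fit was tested on simulated data first.

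Members and gene lists were chosen with earlier results of these data known. Named genes were the called members (the 12 largest per direction where more were called) and a list of well-known liver carriers. Values on every array were given for the 14 genes called in most comparisons. No pairing of arrays was used. Alternatives were the offset, the filter, centring, cyclic loess, no variance trend, array weights, the replicate block, studies fitted alone, the mean over a gene's probe sets and each array left out. Slc6a6 and Slc37a4 are not reported here.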

Additional observations from a re-analysis of the deposited data

Results flagged for a closer look

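Single arrays stood apart from the rest of their group in 9 of 112 pairs of gene and group examined (chance flags about 1 in 20). The genes were the 14 with values on every array. Groups of 3 arrays, which were vehicle, R1 30 and R1 100 of study 1, were too small for this rule and were not examined. Slc25a17 read 192.05 on vehicle array 1 of study 4, where the others read 93.9 to 97.66, and Slc22a7 read 250.409 on the same array, against 311.735 to 324.424. On vehicle array 4 of study 2, Slc16a1 read 230.451, against 285.596 to 295.447, and Slc17a1 57.778, against 45.096 to 45.566. In the R1 20 group, Slc22a7 read 343.432 on array 5 (the others 202.832 to 231.961) and Slc3a2 128.497 on array 2 (the others 174.291 to 196.889). Slc17a1 read 174.291 on R1 30 array 3 of study 3, where the others read 137.705 to 142.644. Slc16a6 read 1.143 on R1 10 array 4 (the others 10.441 to 13.934), and Slc1a2 read 9.27 on vehicle array 4 of study 3 (the others 13.57 to 14.9).

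The effect of R1 100 differed between 336 h and 24 h for 7 genes in limma's test of the difference itself. On the log2 scale the difference was 2.316 for Slc25a23, 2.032 for Slc17a1, 0.8888 for Slc25a51, -1.581 for Slc3a2, -1.601 for Slc6a13, -1.722 for Slc25a20 and -2.268 for Slc16a1. The times were run as separate studies with their own vehicles, so time and study cannot be told apart.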

How the results depend on the processing

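Main counts of Slc probe sets called were 0 (R1 10), 1 (R1 30) and 11 (R1 100) after 24 h, 5 (R1 20), 13 (R1 100) and 13 (R1 30) after 336 h, and 25 (R2 300). Weighting arrays by quality gave 2 for R1 10, 0 for R1 30 after 24 h, 9 for R1 20, 11 for R1 100 over R1 10 (5), 31 for vehicle of study 3 over study 2 (16) and 9 for study 4 over study 1 (5). Fitting each study alone gave 1 for R1 10, 0 for R1 30 after 24 h, 1 for R1 20 and 14 for R2 300. The deviations of 38 pairs of same-numbered arrays correlated between -0.0898 and 0.153, 4 of them over 0.1. The labels do not say whether a number marks a shared batch. These correlations run over all probe sets tested and cannot settle it for single genes. The replicate block gave 1 for R1 10, 3 for R1 100 over R1 20 (6) and 3 for vehicle of study 4 over study 1. It ended 15 of the 90 calls made on the brightest probe set of a gene. These were Slc1a2 (R1 100 after 24 h, R2 300), Slc16a1 (R1 30 after 336 h, both probe sets), Slc25a17 (R1 20), Slc16a6, Slc25a20 and Slc27a1 (R2 300), Slc29a1 (R1 100 over R1 10), Slc17a1, Slc22a5 and Slc25a11 (R1 100 over R1 20), Slc25a51 (R1 100 between times), and Slc25a4, Slc3a1 and Slc7a2 (vehicle of study 4 over study 1), with adjusted p of 0.0503 to 0.137. The cause of these moves was not tested.

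Leaving out 1 array gave 0 to 1 (R1 10), 0 to 1 (R1 30) and 3 to 10 (R1 100) after 24 h, 0 to 5 (R1 20), 9 to 14 (R1 100) and 5 to 15 (R1 30) after 336 h, and 17 to 25 (R2 300). It gave 3 to 5 (R1 100 over R1 10), 2 to 7 (R1 100 over R1 20), 7 to 12 (R1 100 between times), 14 to 18 and 2 to 5 (vehicles). No value changed sign while called. Over all probe sets, weighting arrays moved the calls to 633 for R1 100 after 24 h (407), 452 for R1 20 (282), 380 for R1 100 over R1 10 (253) and 714 for vehicle of study 4 over study 1 (359). Cyclic loess split the Slc calls of R1 100 over R1 10 into 2 higher and 3 lower (1 and 4). Of 54 called values of the 14 genes with values on every array, 44 passed with each study alone, 46 with the replicate block, 50 without a filter or with the mean over probe sets, and 51 to 54 under each other setting short of leaving out an array.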
